A study of Mus musculus with 3 samples.

Results

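The genes described here are those of glycolysis and of the response to low oxygen, chosen by name as a list of 40. Their RNA was followed in macrophages from BALB/c mice that carried orthotopic 4T1 tumors, a mammary carcinoma line derived from the same strain that spreads to the lung. Of the 40 genes, 37 had a probe set that the platform annotation assigns to that gene alone, and all 37 lay above a floor of 5.3 on the log2 scale on at least 1 of 3 arrays. *Gpi1*, *Eno1* and *Bnip3l* are not analysed here. In the whole series, 18193 genes had such a probe set and 12025 of them passed the same floor. The list mixes genes of each step of glycolysis with regulators and known targets of the hypoxia-inducible factor HIF.

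The data comprised 1 array for each of 3 groups. mTAMs were macrophages isolated from the matched metastatic lung, and pTAMs were macrophages isolated from the primary tumor, both 5 weeks after inoculation of 4T1 cells. BMDM were macrophages differentiated in culture from the bone marrow of healthy mice. TAMs and BMDM alike were sorted for CD11b and for the macrophage surface protein encoded by *Adgre1*, and no genetic change is named for any group. The sources used here do not give whether the array cells were also selected against Ly6C. TAMs came from digested tissue and BMDM from a dish, so site, digestion and culture cannot be told apart in any comparison with BMDM. mTAMs came from lung and pTAMs from the primary tumor, and no array holds macrophages of healthy lung. Organ and metastasis thus cannot be told apart between mTAMs and pTAMs. No group had a replicate, so there was no test, no p-value and no error across animals. Each value below is the log2 signal of 1 probe set per gene, and a difference of 1 is 2-fold.

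Glycolysis splits glucose into pyruvate, which is then turned into lactate or burned in mitochondria. HIF is a transcription factor whose alpha subunit is marked for degradation by prolyl hydroxylases when oxygen is present, through the ubiquitin ligase protein VHL. When oxygen is low, and also in macrophages activated by inflammatory signals, the alpha subunit persists and HIF raises glucose transporters, glycolytic enzymes and a set of stress genes, many of which carry the letters ACGTG or GCGTG near their start.

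These letters were common in the promoters of the genes described here. Promoter windows from RefSeq (GRCm38.p6), with 250 bases before and 50 bases after each start, were available for 35 of the 37 genes, without *Slc2a3* and *Ndrg1*. At least 1 window held ACGTG or GCGTG on either strand in 32 of the 35 genes (91.4%), against 66.2% of 9723 genes above the floor and 46.7% of all 27025 genes with a window. For ACGTG alone the share was 26 of 35 genes (74.3%), against 28.9% and 21.8%. The list was chosen by name and holds known targets of HIF, so a higher share of these letters may come with the choice. Of all 32851 single windows, 43.8% held either motif and 19.6% held ACGTG. A gene with several windows has more chances of a match, and a palindromic CACGTG counts once on each strand, so it is read as 2 matches. Windows of 5 genes are shown as examples, 4 with many matches and different behavior on the arrays and 1 with no match. They run 5′ to 3′ in the direction of the gene, and capitals mark ACGTG or GCGTG on either strand.
Bnip3, chr7:138909457-138909756, minus strand: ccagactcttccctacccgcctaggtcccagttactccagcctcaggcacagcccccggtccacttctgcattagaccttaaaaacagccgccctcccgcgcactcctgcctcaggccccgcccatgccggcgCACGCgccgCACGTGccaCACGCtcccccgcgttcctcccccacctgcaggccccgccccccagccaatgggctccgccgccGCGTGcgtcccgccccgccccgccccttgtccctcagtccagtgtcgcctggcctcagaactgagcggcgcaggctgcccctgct
Ankrd37, chr8:45999801-46000100, minus strand: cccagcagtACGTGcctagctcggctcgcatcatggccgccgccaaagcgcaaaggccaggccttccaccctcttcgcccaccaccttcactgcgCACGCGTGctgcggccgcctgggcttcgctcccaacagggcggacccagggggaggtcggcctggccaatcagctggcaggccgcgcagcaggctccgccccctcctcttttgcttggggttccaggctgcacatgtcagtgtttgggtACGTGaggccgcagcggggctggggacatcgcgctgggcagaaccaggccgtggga
Pfkfb3, chr2:11502041-11502340, minus strand: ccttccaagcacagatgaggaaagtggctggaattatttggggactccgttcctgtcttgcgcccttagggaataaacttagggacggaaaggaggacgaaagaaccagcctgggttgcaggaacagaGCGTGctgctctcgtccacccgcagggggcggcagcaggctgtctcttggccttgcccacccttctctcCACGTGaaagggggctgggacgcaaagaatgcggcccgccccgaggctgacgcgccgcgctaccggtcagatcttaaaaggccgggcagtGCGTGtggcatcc
Ldha, chr7:46845554-46845853, plus strand: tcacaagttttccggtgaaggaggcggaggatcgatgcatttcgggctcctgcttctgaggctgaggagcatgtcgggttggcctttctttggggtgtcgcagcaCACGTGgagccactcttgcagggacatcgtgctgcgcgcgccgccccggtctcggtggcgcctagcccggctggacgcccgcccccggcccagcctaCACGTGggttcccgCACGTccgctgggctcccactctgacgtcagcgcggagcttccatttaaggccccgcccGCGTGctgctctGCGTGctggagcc
Eno2, chr6:124769624-124769923, minus strand: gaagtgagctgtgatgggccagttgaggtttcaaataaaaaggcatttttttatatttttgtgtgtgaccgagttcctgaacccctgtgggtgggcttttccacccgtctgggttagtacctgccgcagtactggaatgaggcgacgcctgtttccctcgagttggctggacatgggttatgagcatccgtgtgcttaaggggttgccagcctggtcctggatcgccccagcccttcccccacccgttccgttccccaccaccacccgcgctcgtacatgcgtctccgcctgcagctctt

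*Bnip3* and *Ankrd37* had 5 and 4 matches in their only window. *Pfkfb3* had 4 matches in the window shown and 1 in a second window. *Ldha* had 7 in the window shown and 2 in a second. *Eno2* had none in its only window, which says only that these letters are absent from these bases. Of the 13 genes with a window that were at least 2-fold lower in mTAMs than in pTAMs, 9 held ACGTG (69.2%), and of the 22 other genes 17 did (77.3%). A match of letters is a description and no evidence of binding.

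To describe how macrophages of the metastatic lung differed from those of the primary tumor in these genes, mTAMs were compared with pTAMs. The genes were mostly lower in mTAMs. Of 37 genes, 14 (37.8%) were at least 2-fold lower, against 2.58% of the 11801 genes compared, and 2 (5.41%) were at least 2-fold higher, against 5.36% of all genes. The median log2 difference was -0.83, against -0.06 over all genes, and 33 of 37 genes lay below 0, against 54.1% of all genes. The 14 lower genes were *Eno2*, *Mgarp*, *Adm*, *Ndrg1*, *Car9*, *Ankrd37*, *P4ha2*, *Egln3*, *Higd1a*, *Pdk1*, *Aldoc*, *Bnip3*, *Hk2* and *Pfkp*. The 2 higher genes were *Slc2a3*, a glucose transporter with high affinity, and *Pfkfb4*, a regulator of phosphofructokinase. Probe sets of the same gene give the only technical spread that these arrays hold, with an SD of 0.26 for this comparison over 4939 genes and of 0.24 over 20 of the genes described. Variation between mice, sorts and hybridizations is not part of it.

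**Figure D1:**
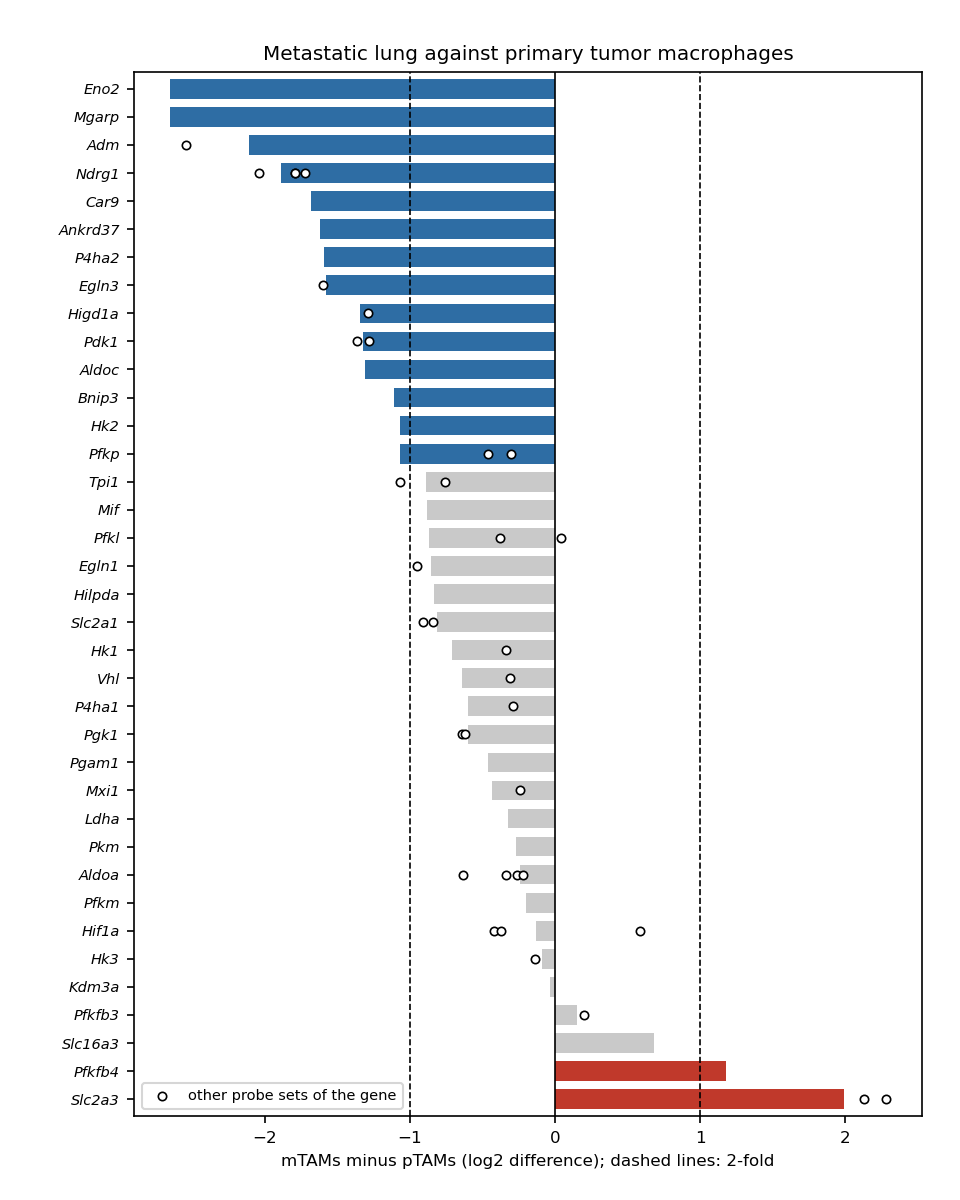
Log2 difference of mTAMs minus pTAMs (horizontal axis) for 37 genes (vertical axis), as bars for the probe set used, with blue for at least 2-fold lower, red for at least 2-fold higher and grey for less than 2-fold, and with other probe sets of the gene as open points. The bars run from -2.65 for *Eno2* and *Mgarp* to 1.99 for *Slc2a3*, and the points of *Pfkp* lie inside the 2-fold line while its bar lies outside.

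The comparison of the TAMs with BMDM asked how far macrophages taken from tumor-bearing mice differed from cultured ones. In pTAMs, 23 of 37 genes (62.2%) were at least 2-fold higher than in BMDM, against 8.78% of 11859 genes, and none was 2-fold lower, against 7.5%. Their median log2 difference was 1.27, against -0.05 over all genes, and their differences ran from -0.17 to 6.14. In mTAMs, 13 of 37 genes (35.1%) were at least 2-fold higher than in BMDM, against 11.5% of 11945 genes, and 1, *P4ha2* (2.7%), was at least 2-fold lower, against 14.4%. The median was 0.45, against -0.11 over all genes. Over all genes compared, 44.4% of the calls in mTAMs against BMDM were higher, and 55.1% after cyclic loess normalization, which moved the median of all genes by 0.11 to 0 and kept the 13 higher genes. Both comparisons use the same BMDM array, so the values are set side by side and no overlap is drawn from them. The probe-set SD came to 0.44 for mTAMs set against BMDM and to 0.35 for pTAMs.

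**Figure D2:**
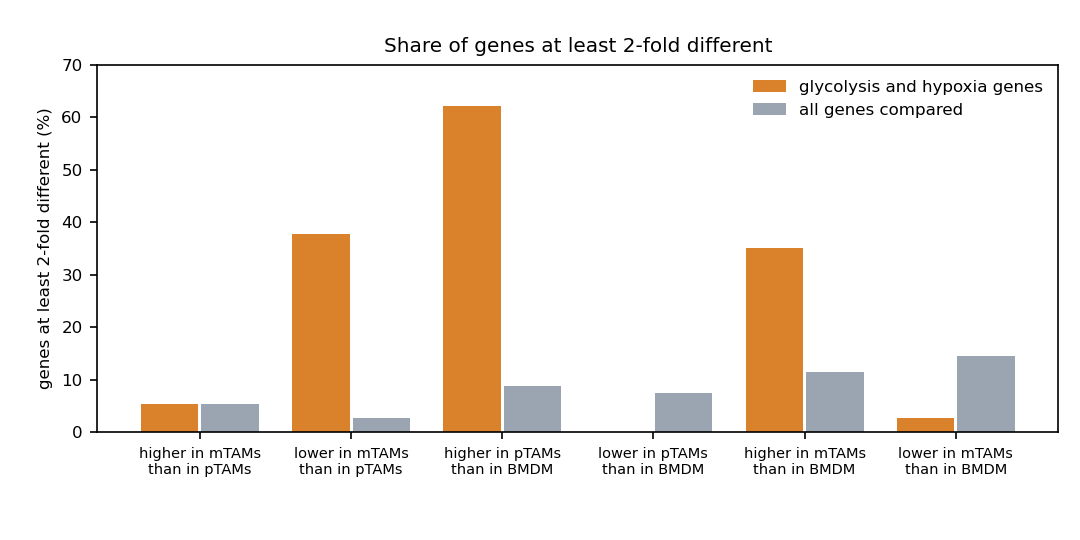
Percent of genes at least 2-fold higher or lower (vertical axis) in each of 3 comparisons (horizontal axis), with orange bars for the 37 glycolysis and hypoxia genes and grey bars for all genes compared. The orange bar reaches 62.2% for genes higher in pTAMs than in BMDM, and the bars are nearly level, at 5.41% and 5.36%, for genes higher in mTAMs than in pTAMs.

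The glucose transporters differed in opposite directions between the tumor sites. *Slc2a3* had values of 12.33 in mTAMs, 10.34 in pTAMs and 9.0 in BMDM. It was thus highest in mTAMs, 3.97-fold above pTAMs and 10.1-fold above BMDM, and pTAMs were 2.53-fold above BMDM. For mTAMs against pTAMs, the 2 other probe sets of *Slc2a3* above the floor on both arrays gave 2.13 and 2.28, and one that lay at 6.53 in mTAMs and, below the floor, at 4.63 in pTAMs gave 1.90. *Slc2a1*, which encodes the glucose transporter of most cell types, was measured at 11.61 in mTAMs, 12.42 in pTAMs and 9.63 in BMDM. Both TAM arrays were high and the BMDM array low, with pTAMs 6.92-fold and mTAMs 3.94-fold above BMDM. mTAMs were 1.75-fold below pTAMs, and all 3 probe sets of *Slc2a1* were within 0.10 of each other in that comparison, from -0.91 to -0.81.

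Upper glycolysis, from the trapping of glucose to its cleavage, was represented by 10 genes. Of these, 3 exceeded BMDM by at least 2-fold in mTAMs, against 11.5% of all genes compared, and 4 in pTAMs, against 8.78%. *Hk2*, the inducible hexokinase, lay at 9.65 in mTAMs, 10.72 in pTAMs and 8.52 in BMDM. The order was pTAMs, mTAMs, BMDM, with pTAMs 4.59-fold and mTAMs 2.19-fold above BMDM, and mTAMs 2.10-fold below pTAMs. The other hexokinases were closer together: *Hk3* lay between 10.57 and 10.72 on the 3 arrays, and *Hk1* between 9.39 in mTAMs and 10.10 in pTAMs. Among the phosphofructokinase genes, which encode the enzyme of the committed step, *Pfkl* stood at 8.84 in mTAMs, 9.71 in pTAMs and 8.29 in BMDM, or 2.68-fold higher in pTAMs than in BMDM. Its other probe sets disagreed on mTAMs against BMDM, with log2 differences from 0.79 to 1.90 where the one used gave 0.55, and for mTAMs against pTAMs they gave -0.38 to 0.04 where the one used gave -0.87. *Pfkp* had values of 10.13 in mTAMs, 11.20 in pTAMs and 10.28 in BMDM, so pTAMs were highest, 1.89-fold above BMDM. Against BMDM its other probe sets disagreed: one gave 0.22 in pTAMs and -0.08 in mTAMs, the other 1.41 and 0.95. Its 2.10-fold lower level in mTAMs than in pTAMs rests on the probe set used, as the other probe sets gave -0.46 and -0.30. *Pfkm*, the muscle form, was measured at 6.84 in mTAMs, 7.04 in pTAMs and 7.21 in BMDM.

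The 2 genes of bifunctional enzymes that set the level of the activator of phosphofructokinase did not follow *Hk2*. *Pfkfb3* lay at 10.32 in mTAMs, 10.17 in pTAMs and 7.06 in BMDM. The 2 TAM arrays were thus alike and both high, 9.58-fold above BMDM in mTAMs and 8.63-fold in pTAMs, and the second probe set gave 0.20 between them in place of 0.15. *Pfkfb4* stood at 10.34 in mTAMs, 9.16 in pTAMs and 7.87 in BMDM. It was highest in mTAMs, 2.27-fold above pTAMs and 5.54-fold above BMDM, and was read from a single probe set. Of the aldolases, which cleave the sugar, *Aldoa* lay between 12.73 in mTAMs and 12.97 in pTAMs, with BMDM at 12.80. *Aldoc* had values of 8.42 in mTAMs, 9.73 in pTAMs and 8.95 in BMDM, 2.48-fold lower in mTAMs than in pTAMs and within 2-fold in either against BMDM.

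By the probe sets used, most enzymes of lower glycolysis differed by less than 2-fold in all 3 comparisons. *Tpi1*, *Pgk1*, *Pgam1* and *Pkm*, which encode the enzymes from triose phosphate isomerase to pyruvate kinase, had log2 differences from -0.89 to -0.27 for mTAMs against pTAMs and from -0.06 to 0.37 when pTAMs were set against BMDM. In mTAMs relative to BMDM they ran from -0.52 to -0.24. For mTAMs against pTAMs the other probe sets of *Tpi1* gave -1.07, just past 2-fold, and -0.76. *Eno2*, the enolase first known from neurons, was the exception. It was measured at 6.21 in mTAMs, 8.86 in pTAMs and 6.10 in BMDM. Only the pTAM array was high, 6.77-fold above BMDM, whereas mTAMs were 6.28-fold below pTAMs and within 1.08-fold of BMDM. *Eno2* was read from a single probe set.

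The 3 genes for the fate of pyruvate each had their own pattern. *Ldha*, which encodes the subunit of lactate dehydrogenase that favors lactate, lay at 12.60 in mTAMs, 12.92 in pTAMs and 12.64 in BMDM, a range of less than 2-fold, and its window held the most matches of those printed above. *Slc16a3*, which exports lactate, stood at 8.68 in mTAMs, 8.0 in pTAMs and 6.02 in BMDM. Both TAM arrays were above BMDM, mTAMs by 6.32-fold and pTAMs by 3.94-fold, and mTAMs were 1.60-fold above pTAMs. *Pdk1*, a kinase that keeps pyruvate from oxidation in mitochondria by inactivating pyruvate dehydrogenase, had values of 7.23 in mTAMs, 8.55 in pTAMs and 7.55 in BMDM. It was highest in pTAMs and lowest in mTAMs, 2.5-fold below pTAMs, and 2 other probe sets above the floor gave -1.36 and -1.28 for a difference of -1.32. Against BMDM, *Pdk1* in pTAMs lay just at the 2-fold line (1.00), and the same 2 probe sets gave 0.82 and 1.04. A further probe set of *Pdk1*, at 5.32 in pTAMs and below the floor at 3.82 in BMDM, gave 1.5.

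**Figure D3:**
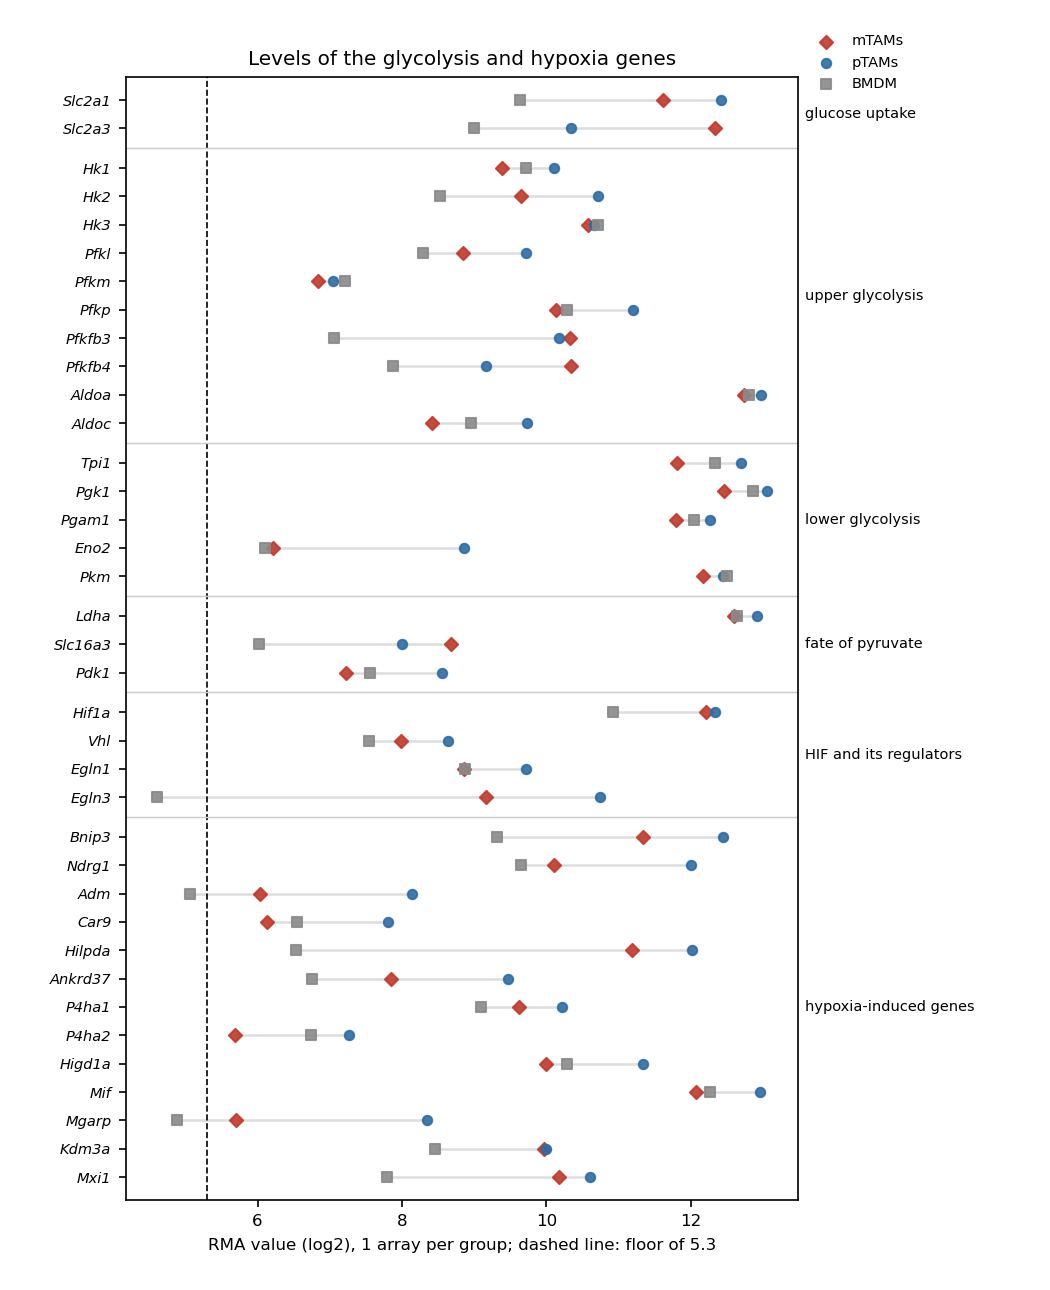
RMA values (horizontal axis, log2) of 37 genes (vertical axis, grouped by role) on the mTAM, pTAM and BMDM arrays (1 point each). A dashed line marks the floor of 5.3. *Slc2a3*, *Pfkfb4* and *Slc16a3* have their highest point in mTAMs, whereas *Eno2*, *Adm* and *Mgarp* stand out in pTAMs, and *Egln3* in BMDM lies at 4.60, below the floor.

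Among the genes of HIF control, *Hif1a*, which encodes the oxygen-regulated alpha subunit, was measured at 12.21 in mTAMs, 12.34 in pTAMs and 10.92 in BMDM. mTAMs were 2.45-fold and pTAMs 2.68-fold above BMDM, and the TAM arrays differed by 0.13 on the log2 scale, less than the SD between probe sets. The 3 other probe sets of *Hif1a* gave values from -0.42 to 0.59 for this difference, so it had no settled sign. *Vhl* lay at 7.99 in mTAMs, 8.63 in pTAMs and 7.54 in BMDM, or 2.13-fold higher in pTAMs than in BMDM. Its second probe set gave 0.87 in place of 1.09. *Egln1*, the main prolyl hydroxylase of HIF, stood at 8.86 in mTAMs, 9.71 in pTAMs and 8.87 in BMDM, so pTAMs alone were higher, by less than 2-fold.

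*Egln3*, a prolyl hydroxylase that HIF itself induces, had values of 9.16 in mTAMs, 10.74 in pTAMs and 4.60 in BMDM. pTAMs were highest and BMDM lay below the floor, so pTAMs were at least 43.4-fold and mTAMs at least 14.5-fold above BMDM. The second probe set was above the floor on all arrays and gave smaller log2 differences, 3.06 for pTAMs and 1.46 for mTAMs. Between the TAMs the probe sets were alike, with mTAMs 2.99-fold lower (-1.58, and -1.60 from the second probe set). Between the tumor sites, *Egln3* was thus lower in mTAMs by both probe sets, whereas the probe sets of *Hif1a* disagreed in sign.

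Hypoxia-induced genes were the group with the lowest median in mTAMs against pTAMs, -1.34 over 13 genes. Of these, 8 were at least 2-fold lower, against 2.58% of all genes compared, and none was higher, against 5.36%. In pTAMs 11 of the 13 were at least 2-fold above BMDM (median 2.35), against 8.78% of all genes. In mTAMs 5 were above and 1 was below (median 0.82), against 11.5% and 14.4% of all genes. *Mgarp*, which encodes a protein of mitochondria, was measured at 5.70 in mTAMs, 8.35 in pTAMs and 4.88 in BMDM. The pTAM array alone was far from the floor, at least 8.28-fold above BMDM, and mTAMs were 6.28-fold below pTAMs. *Adm*, which encodes the vasodilator peptide adrenomedullin, lay at 6.03 in mTAMs, 8.14 in pTAMs and 5.07 in BMDM, and was 4.32-fold lower in mTAMs than in pTAMs. Its second probe set gave -2.54 in place of -2.11. *Ndrg1*, a stress gene widely used as a sign of hypoxia, stood at 10.11 in mTAMs, 12.00 in pTAMs and 9.65 in BMDM. It was 3.71-fold lower in mTAMs than in pTAMs, and 4 other probe sets gave log2 differences from -2.04 to -1.72.

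*Car9*, a carbonic anhydrase of the cell surface that helps to keep cell pH, had values of 6.13 in mTAMs, 7.81 in pTAMs and 6.54 in BMDM. pTAMs alone were high, and mTAMs were 3.20-fold below pTAMs and 1.33-fold below BMDM. *Ankrd37*, a small ankyrin repeat gene, was measured at 7.85 in mTAMs, 9.47 in pTAMs and 6.75 in BMDM, so mTAMs lay between the others, 3.07-fold below pTAMs and 2.14-fold above BMDM. *P4ha2*, which encodes a collagen prolyl hydroxylase subunit, lay at 5.68 in mTAMs, 7.27 in pTAMs and 6.74 in BMDM. It was the single gene at least 2-fold lower in mTAMs than in BMDM (2.08-fold), and its mTAM value lay close to the floor. Its relative *P4ha1* stood at 9.62 in mTAMs, 10.22 in pTAMs and 9.10 in BMDM, with pTAMs 2.17-fold above BMDM by the probe set used and 0.74 on the log2 scale by the second.

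*Higd1a*, a mitochondrial stress gene, had values of 9.99 in mTAMs, 11.33 in pTAMs and 10.29 in BMDM. It was 2.53-fold lower in mTAMs than in pTAMs, with -1.29 in place of -1.34 from the other probe set above the floor. Against BMDM the pTAM value was 2.06-fold higher, and that probe set gave 0.59. *Bnip3*, which marks mitochondria for autophagy, was measured at 11.33 in mTAMs, 12.44 in pTAMs and 9.32 in BMDM. Here both TAM arrays were well above BMDM, by 4.03-fold in mTAMs and 8.69-fold in pTAMs, and mTAMs were 2.16-fold below pTAMs.

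Like *P4ha1*, the hypoxia-induced genes *Hilpda*, *Kdm3a*, *Mxi1* and *Mif* were within 2-fold between the tumor sites. *Hilpda*, which encodes a lipid droplet protein that inhibits fat breakdown, lay at 11.18 in mTAMs, 12.01 in pTAMs and 6.53 in BMDM. It was far higher in both TAMs, 25.1-fold in mTAMs and 44.6-fold in pTAMs, and 1.78-fold lower in mTAMs than in pTAMs. *Kdm3a*, a histone demethylase gene, stood at 9.96 in mTAMs, 9.99 in pTAMs and 8.46 in BMDM, 2.83-fold above BMDM in mTAMs and 2.89-fold in pTAMs. *Mxi1*, which encodes a protein that opposes MYC, had values of 10.17 in mTAMs, 10.60 in pTAMs and 7.79 in BMDM, so that mTAMs were 5.21-fold and pTAMs 7.01-fold above BMDM. *Mif*, a cytokine gene, had 12.07 in mTAMs, 12.95 in pTAMs and 12.26 in BMDM, so that mTAMs were 1.84-fold below pTAMs. The differences of *Hilpda* (-0.83) and *Mif* (-0.88) exceeded the probe-set SD of 0.26, whereas that of *Kdm3a* (-0.03) did not. This SD holds no variation between mice, sorts or hybridizations. *Hilpda* and *Kdm3a* were each read from a single probe set, and the other probe sets of *Mif* lay below the floor on every array.

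**Figure D4:**
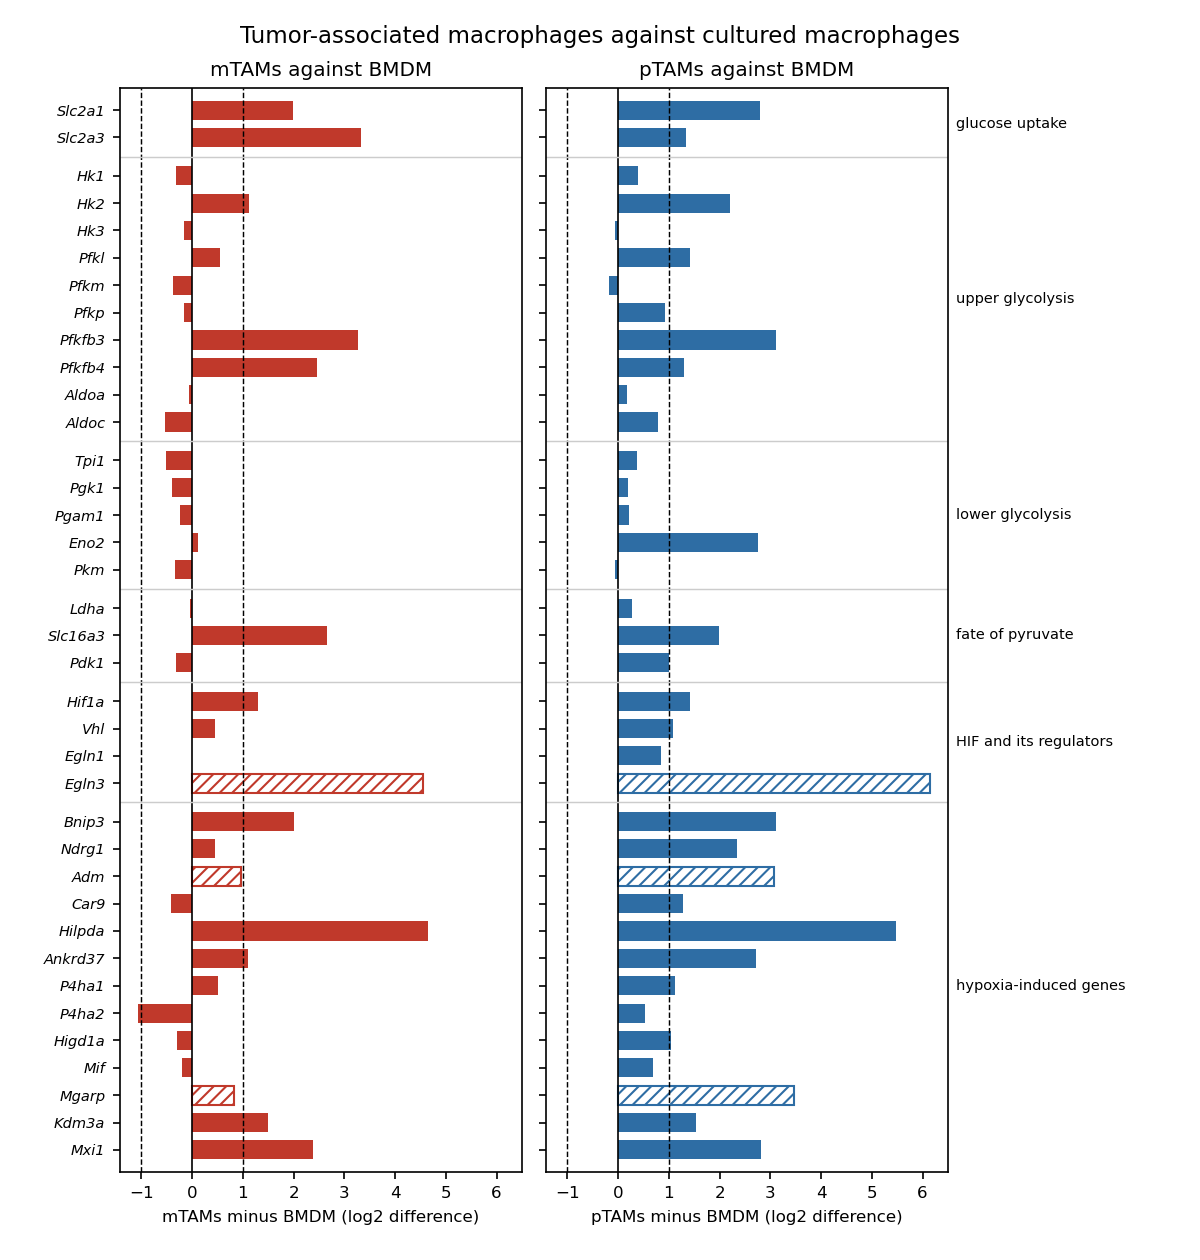
Log2 differences from BMDM (horizontal axes) of 37 genes (vertical axis, grouped by role) for mTAMs (left) and pTAMs (right), with dashed lines at 2-fold and hatched bars where the BMDM value lies below the floor. *Hilpda* and *Egln3* have long bars in both panels, whereas *Ndrg1* is at 0.46 in mTAMs and 2.35 in pTAMs, and *Eno2* at 0.11 in mTAMs and 2.76 in pTAMs.

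The calls of genes with several probe sets mostly held across them. In mTAMs against pTAMs, 7 genes with a 2-fold difference had other probe sets above the floor, all of the same sign in the 7 genes and all at least 2-fold in 6, with *Pfkp* as the exception. In pTAMs against BMDM there were 11 such genes, of which 11 kept the sign and 7 the size, and in mTAMs against BMDM all 5 kept both.

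Genes near the same pathways were counted for comparison. Of 24 other genes of sugar metabolism above the floor, 3 exceeded pTAMs by at least 2-fold in mTAMs and none was lower (median -0.03). The 3 were *Slc2a6*, a further sugar transporter (10.32 in mTAMs, 8.25 in pTAMs and 7.92 in BMDM), *Adpgk*, a glucokinase that uses ADP (8.31 in mTAMs, 6.87 in pTAMs and 6.52 in BMDM), and *Taldo1*, an enzyme of the pentose phosphate pathway (12.57 in mTAMs, 11.53 in pTAMs and 12.46 in BMDM). Against BMDM, 2 were higher and 2 lower in pTAMs, where 8.78% and 7.5% of all genes were. In mTAMs 3 were higher and 3 lower, against 11.5% and 14.4% of all genes. The 24 genes thus did not share the rise in pTAMs of the genes described above. Among the latter, the 20 from glucose uptake to the fate of pyruvate had a median of 0.85 in pTAMs against BMDM. In mTAMs against BMDM their median was -0.11, the same as over all genes. There, 6 of the 20 were higher, 0 lower and 14 within 2-fold.

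Among 36 other genes linked to the hypoxia response, 11 were at least 2-fold lower in mTAMs than in pTAMs, against 2.58% of all genes. Another 3 were higher, against 5.36%. The lower genes included *Selenbp1* (8.15 in mTAMs, 10.03 in pTAMs and 7.83 in BMDM) and *Ak4*, a mitochondrial adenylate kinase gene (6.63 in mTAMs, 8.41 in pTAMs and 5.54 in BMDM). *Vegfa*, which encodes the growth factor of blood vessels, lay at 8.05 in mTAMs, 9.56 in pTAMs and 6.64 in BMDM. Thus *Vegfa* was 2.85-fold lower in mTAMs than in pTAMs and 2.66-fold higher in mTAMs than in BMDM. The 3 higher genes were *Angptl4*, an inhibitor of lipoprotein lipase, the chemokine receptor gene *Cxcr4* and *Trem1*, an activating receptor of myeloid cells, by 2.36-fold, 2.13-fold and 2.22-fold. Against BMDM, 12 of the 36 genes were higher and 3 lower in mTAMs, where 11.5% and 14.4% of all genes were. In pTAMs 16 were higher and 3 lower, against 8.78% and 7.5%. Other HIF subunits and other hydroxylases of HIF differed little: *Epas1*, *Arnt*, *Hif3a*, *Hif1an* and *Egln2* differed by at most 0.07 between mTAMs and pTAMs and from -0.40 to 0.46 from BMDM.

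**Figure D5:**
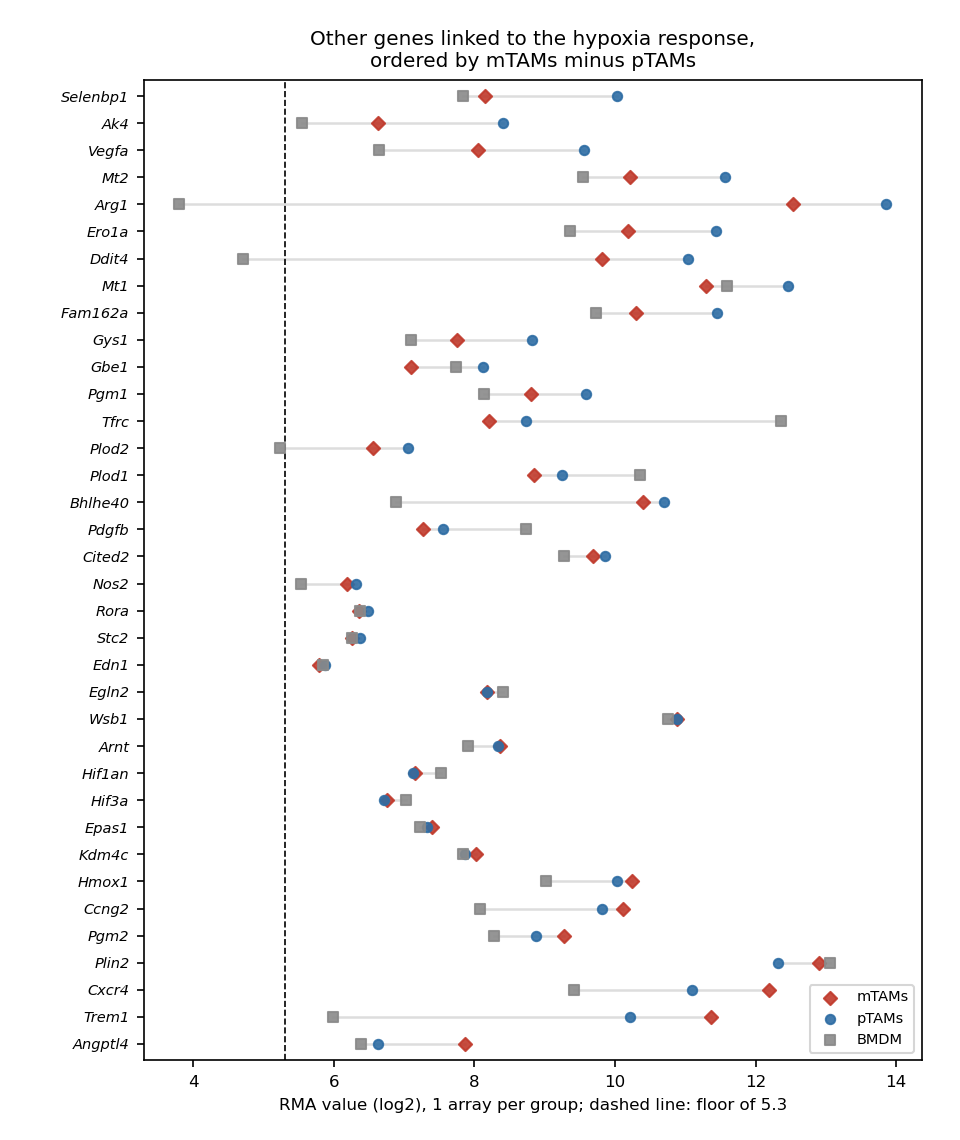
RMA values (horizontal axis, log2) of 36 other genes linked to the hypoxia response (vertical axis, ordered by the difference of mTAMs from pTAMs) on the mTAM, pTAM and BMDM arrays (1 point each). A dashed line marks the floor of 5.3. pTAMs are 1.88 above mTAMs for *Selenbp1* at the top, and mTAMs are 1.24 above pTAMs for *Angptl4* at the bottom.

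Markers of other cells also differed between the arrays, and not all in the direction of most genes described here. For mTAMs against pTAMs, median log2 differences were 1.8 for neutrophil, 2.6 for alveolar macrophage, 0.9 for fibroblast and 1.1 for lymphocyte markers. They were -0.73 for epithelial or carcinoma, -0.04 for endothelial and 0.04 for erythroid markers. In bulk samples fewer cells of a type and less RNA per cell cannot be told apart. All 11 measured genes of macrophage identity lay above the floor on every array, but 3 of them were at least 2-fold lower in mTAMs than in pTAMs and none was higher (median -0.29). The 3 were the scavenger receptor gene *Cd163* (-2.11), the Fc receptor gene *Fcgr1* (-1.45) and *Aif1* (-1.08). Of the genes for the sorted proteins, *Adgre1* was 10.06 in mTAMs, 10.0 in pTAMs and, highest, 11.93 in BMDM, whereas *Itgam*, for CD11b, had 11.61 in mTAMs, 11.90 in pTAMs and, lowest, 10.46 in BMDM. Neutrophil markers were higher in mTAMs than in pTAMs for 8 of 10 genes by at least 2-fold, against 5.36% of all genes compared. The summed linear signal of the 10 came to 81000 in mTAMs, 34900 in pTAMs and 1700 in BMDM, and 10 of them in mTAMs, 10 in pTAMs and 8 in BMDM were above the floor. Of 10 compared markers of epithelial or carcinoma cells, 3 were at least 2-fold lower in mTAMs than in pTAMs (*Cdh1*, *Krt7* and *Cldn4*) and none was higher, with summed signals of 2560 in mTAMs, 4710 in pTAMs and 464 in BMDM over 14 markers, of which *Krt14*, *Cldn7*, *Esrp1* and *Ovol1* lay below the floor on every array. All 10 markers of alveolar macrophages were higher in mTAMs than in pTAMs, by at least 2-fold for all but *Cidec*. *Cidec* lay below the floor in pTAMs, and its fold taken from the floor was at least 1.48. *Siglecf*, *Marco*, *Krt79* and *Fabp1* also lay below the floor in pTAMs, so that their folds are lower bounds. Of 7 fibroblast markers compared, 3 were at least 2-fold above pTAMs in mTAMs, namely *Dcn* by 9.58-fold, *Col3a1* by 7.67-fold and *Col1a2* by 6.92-fold, and none was lower. Over the 11 measured, their signals summed to 5230 in mTAMs, 1240 in pTAMs and 361 in BMDM. Of 4 lymphocyte markers compared, *Cd3d* was 4.86-fold and *Cd2* 4.14-fold higher in mTAMs than in pTAMs, with sums over 10 markers of 822 in mTAMs, 396 in pTAMs and 405 in BMDM.

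Genes that respond to the handling of tissue, such as immediate early and heat shock genes, were at least 2-fold above BMDM for 16 of 18 genes in mTAMs and 15 of 18 in pTAMs. Between the tumor sites, all 18 had a larger value in mTAMs than in pTAMs, 4 of them by 2-fold or more, with a median log2 difference of 0.60. Of 19 genes of the cell cycle, 18 lay at least 2-fold below BMDM on either TAM array. The part of other cells, handling and proliferation in the differences of the glycolysis and hypoxia genes was not tested.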

How the data were processed

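Total RNA of mTAMs, pTAMs and BMDM was biotin-labeled and hybridized to Affymetrix mouse arrays, 1 per group. The authors deposited a single table, with RMA log2 values of 45037 probe sets, that is, background-corrected, quantile-normalized and summarized signals. The RMA version and a genome build are not given in the sources used here. Medians per array lay between 5.36 and 5.43, and a change common to all genes would be removed by this normalization.

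The platform annotation pairs 34945 probe sets with 1 symbol, which were used, 932 with several and 9160 with no symbol. The probe set with the highest 3-array mean stood for each gene. Where the lower value did not exceed the floor of 5.3, the fold was taken from the floor and is a lower bound. The floor was set by the rule that defines the genes, and the 95th percentile of 84 probe sets for sensory receptors was 5.56. A gene had to exceed the floor on either array of a comparison, and was called at 2-fold. The members, gene lists and motifs were chosen with earlier results of these data known. Genes at least 2-fold different and the HIF regulators were named with all values, and of other lists at most 4 per direction. The calling code was run on simulated arrays with set differences and noise of SD 0.2. That checks the code only, as it holds no variation between animals, sorts or hybridizations. Alternatives were cyclic loess, quantile and median scaling, averaging a gene's probe sets, probe sets without shared-target endings, no floor, a higher floor, values raised to the floor and a 3-fold threshold. Promoters came from RefSeq (GRCm38.p6) by symbol. Software comprised limma 3.58.1 under R 4.3.3, and pandas 2.3.3, numpy 2.4.6 and matplotlib 3.10.9 under Python 3.11.15.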

Additional observations from a re-analysis of the deposited data

Results flagged for a closer look

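Genes on opposite sides of BMDM, lower in mTAMs and higher in pTAMs by more than the SD between probe sets of a gene in each comparison, were *Aldoc* (-0.53 in mTAMs and 0.78 in pTAMs), *Tpi1* (-0.52 in mTAMs and 0.37 in pTAMs) and *P4ha2* (-1.06 in mTAMs and 0.53 in pTAMs). The gaps between mTAMs and pTAMs were -1.31, -0.89 and -1.59. The BMDM array is shared by both comparisons, and with 1 array per group the difference was not tested. After cyclic loess normalization the value in mTAMs against BMDM was -0.34 for *Aldoc* and -0.26 for *Tpi1*, inside the SD of 0.44, and -0.98 for *P4ha2*. The other probe sets gave -0.39 for *Aldoc* and -0.39 and -0.36 for *Tpi1*, also inside it. That of *Aldoc* lay just below the floor in mTAMs, at 5.29. In pTAMs against BMDM, *Tpi1* was 0.3 after median or quantile scaling, inside the SD of 0.35.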

How the results depend on the processing

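With a 3-fold threshold in place of 2-fold, 1 gene was higher and 7 were lower in mTAMs than in pTAMs, 13 were higher in pTAMs than in BMDM, and in mTAMs against BMDM 9 were higher and 0 were lower. Of all genes, 294 were then higher and 58 lower in mTAMs than in pTAMs, in place of 633 and 304, 637 and 378 in pTAMs against BMDM, in place of 1041 and 890, and 862 and 575 in mTAMs against BMDM, in place of 1368 and 1715. After cyclic loess normalization 0 genes described here were lower in mTAMs than in BMDM, as *P4ha2* crossed the threshold, and 11 in place of 14 were lower in mTAMs than in pTAMs, without *Bnip3*, *Hk2* and *Pfkp*. Over the alternatives other than the 3-fold threshold, the median difference of the genes described ran from -0.84 to -0.61 for mTAMs against pTAMs, from 1.09 to 1.32 for pTAMs against BMDM and from 0.22 to 0.60 for mTAMs against BMDM. With the mean of all probe sets 13 genes were lower in mTAMs than in pTAMs, without *Pfkp*, and 20 in place of 23 were higher in pTAMs than in BMDM, without *Higd1a*, *P4ha1* and *Vhl*. With median-centered arrays this count was 21, without *Higd1a* and *Pdk1*. In mTAMs against BMDM, *Adm* was added to the 13 higher genes after cyclic loess, and *Adm* and *Pfkl* with the mean of all probe sets or without shared-target probe sets. No paired analysis was possible because each group has 1 array. Values near the floor, such as those of *Adm* and *Mgarp* in mTAMs and BMDM, limit what can be said of their size.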
